A study of Saccharomyces cerevisiae with 36 samples.

Results

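The CCR4-NOT complex of budding yeast is encoded by 9 genes of the deposited expression table, taken by their systematic names: CCR4 (YAL021C), POP2 (YNR052C), CDC39 (YCR093W), CDC36 (YDL165W), NOT3 (YIL038C), NOT5 (YPR072W), MOT2 (YER068W), CAF40 (YNL288W) and CAF130 (YGR134W). They are 9 of 5798 mRNA genes and of 9765 features in that table. The rule for this choice used no measured value, though earlier results of these data were known. The study followed RNA levels in Saccharomyces cerevisiae strains that lack an enzyme of RNA decay. The mutants were xrn1D cells of the S288C (strain YAM6), W303 (YAM97) and haploid SK1 (YAM2087) backgrounds, xrn1D/xrn1D diploid SK1 cells (YAM2068), dcp2-7 cells at 37 °C (YAM2283, S288C) and upf1D cells (YAM202, S288C). Their wild types were YAM1 (S288C), YAM92 (W303), YAM1977 (haploid SK1), YAM2067 (diploid SK1), YAM1 at 37 °C and, for upf1D, a separate pair of YAM1 libraries. Each genotype was 1 strain, measured in 2 biological replicates. RNA of xrn1D and dcp2-7 cells and of their wild types was also sequenced after digestion with Terminator exonuclease, and capped 5′ ends of dcp2-7 and wild-type cells were mapped by CAGE after 2 hours at 37 °C. For the RNA-seq libraries the labels give that temperature without a duration.

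CCR4-NOT shortens the poly(A) tail of cytoplasmic mRNAs, the step that usually precedes loss of the cap and digestion of the body of the mRNA. CCR4 is its main deadenylase in yeast, POP2 (the yeast Caf1) joins CCR4 to the scaffold CDC39 (also called NOT1), and CDC36 (NOT2), NOT3 and NOT5 form the module at the other end of that scaffold. MOT2 (NOT4) is a RING-type ubiquitin ligase, CAF40 is a conserved subunit that contacts RNA-binding proteins in other eukaryotes, and CAF130 is found in yeasts. XRN1 digests decapped RNA from its 5′ end, DCP2 removes the cap, and UPF1 is the helicase of nonsense-mediated decay (NMD), so each mutation blocks a step that comes after deadenylation or runs beside it.

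Expression was given as density, the reads per nucleotide of a feature times 1 factor per library that sets the summed density of 77 snoRNAs equal in all libraries. Density is therefore per length, and genes can be compared with each other. The rRNA-depleted libraries held 11021562 to 68466587 reads on features, and the Terminator libraries 13208233 to 23350952. The 9 members had at least 232 reads each in every library. On this scale nearly all mRNAs moved together in the decay mutants: the median log2 change of mRNAs was 1.58 in xrn1D S288C cells, 1.97 in W303, 1.55 in haploid SK1, 3.14 in diploid SK1, 0.71 in dcp2-7 and 0.32 in upf1D cells. A change of the snoRNAs and a change of the mRNAs cannot be told apart on the deposited scale, so changes of the members are also given relative to the mRNA median, that is with each library shifted to the same median log2 density over all mRNAs. XRN1 and NAM7 (UPF1) reads were near 0 in the libraries of their deletions, as the labels state, whereas DCP2 RNA checks nothing for a temperature-sensitive allele. The libraries labelled wild-type diploid SK1 stood apart. The mRNA median was 0.962 and 0.894 in xrn1D/xrn1D diploids, against 0.0725 and 0.0876 in wild-type diploids, the lowest of all groups. Alpha-cell genes, which an a/alpha diploid represses, were read in both diploid strains. STE3 had a density of 0.209 and 0.0430 in xrn1D/xrn1D diploids, against 0.269 and 0.925 in wild-type diploids, and SAG1 had 1.29 and 0.945, against 1.52 and 3.56. MF(ALPHA)1 had 0.847 and 0.159 in xrn1D/xrn1D diploids, against 0.618 and 2.33 in wild-type diploids. In wild-type haploid SK1 these genes had 3.69 and 3.52, 9.31 and 8.06, and 7.44 and 7.61. SAG1 also had 1.34 and 1.23 in xrn1D S288C cells, where STE3 had 0.0141 and 0.0144. RME1 and STE5, haploid-specific genes, were lower in diploid than in haploid SK1. RME1 had 0.0400 and 0.0257 in xrn1D/xrn1D diploids, against 0.749 and 0.719 in xrn1D haploids. In wild type it had 0.0153 and 0.0548, against 0.232 and 0.205. STE5 had 0.221 and 0.169 in xrn1D/xrn1D diploids, against 0.789 and 0.772 in xrn1D haploids. In wild type STE5 had 0.0150 and 0.0498, against 0.208 and 0.189. The part of all these genes in any value of the diploids was not tested.

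The capped ends place each mRNA start before the coding sequence. CAGE positions, single nucleotides pooled over the replicates of a genotype by the authors, were counted from 200 nt before each annotated start to the gene's end. In both dcp2-7 and wild-type cells 8 of 9 members had such a position, against 77.2% of mRNAs in dcp2-7 and 76.3% in wild type. All of these positions (14 in dcp2-7, 13 in wild type) lay before the start and none inside a member. Of all mRNAs 71.2% had a position before the start in dcp2-7 and 71.6% in wild type. NOT3 had a single position, 238 nt before its start, in both lists. Both lists shared the positions of MOT2 (83 nt before the start), CDC39 (30 nt), POP2 (102 and 57 nt), NOT5 (107 and 101 nt), CAF40 (141 and 136 nt) and CAF130 (152 and 150 nt). CCR4 had 1 shared position at 47 nt, a second at 59 nt listed in dcp2-7 only and another at 44 nt listed in wild type only. CDC36 had a shared position at 49 nt and one at 39 nt listed in dcp2-7 only. With 1 list per genotype and no value per position, these differences have no test. The label of the second dcp2-7 CAGE sample lists the barcode of the first beside its own, so which reads the dcp2-7 list pools is unsure. Over the whole lists, 73.8% of the 10183 dcp2-7 positions and 80.5% of the 9340 wild-type positions were shared.

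The sequences that end at these capped nucleotides are shown for the members on which the results below turn, with the 60 bases before the capped one in lower case and the capped base in capitals. They were read from the R64 genome, whose gene coordinates equal those of the table for 5757 of 5789 matched genes and for all 9 members. MOT2 is at chr5:292907-292967 on the plus strand, CCR4 at chr1:113406-113466 on the minus strand, CDC39 at chr3:280027-280087, CDC36 at chr4:164181-164241 and CAF40 at chr14:90102-90162, the last 3 on the plus strand.
MOT2: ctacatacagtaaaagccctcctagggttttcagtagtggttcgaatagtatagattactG
CCR4: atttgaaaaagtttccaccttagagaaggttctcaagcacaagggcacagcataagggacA
CDC39: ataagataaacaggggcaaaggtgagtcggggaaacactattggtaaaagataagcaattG
CDC36: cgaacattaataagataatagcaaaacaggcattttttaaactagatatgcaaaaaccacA
CAF40: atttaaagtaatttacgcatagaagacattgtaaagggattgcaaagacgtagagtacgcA
Each of these 5 ends is a purine after a pyrimidine. That step was present at 12 of the 13 shared positions of the members and at 95.7% of 7502 shared positions in the genome. Minus-strand positions, those of CCR4, POP2 and NOT3 among them, had been moved onto this step (0.935% had it as deposited). For them it is therefore no independent observation. Plus-strand positions were not moved, and 95.8% of the 3866 shared ones in the genome had the step. Among plus-strand positions of the members only that of CAF130 at 152 nt lacked it. The TATAAA motif, sought on both strands in the 150 nt before the capped base, was found before CDC36 and before both positions of NOT5, 3 of 13 positions, against 29.1% of all shared positions.

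**Figure D1:**
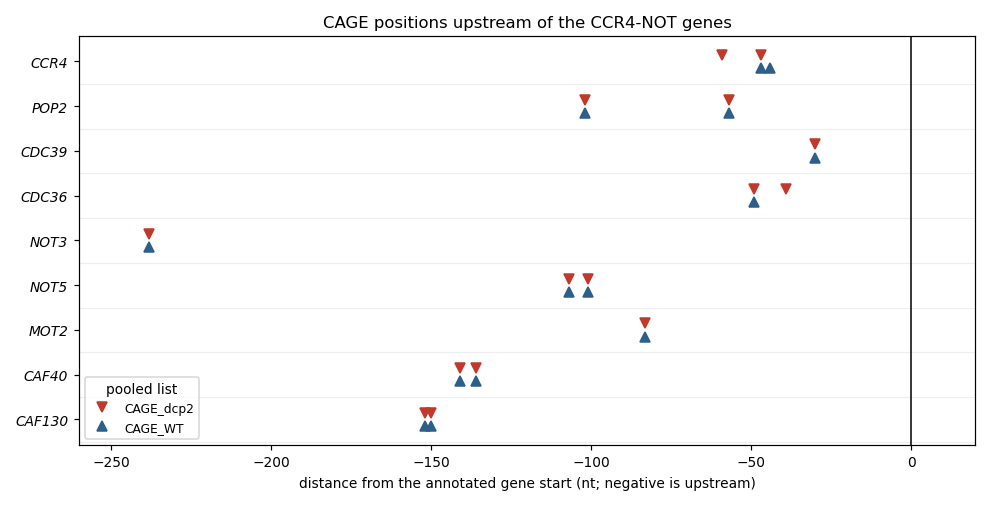
Capped 5′ ends of the 9 CCR4-NOT genes by CAGE. The x axis gives the distance from the annotated gene start in nt (negative is upstream) and each row is a gene, with separate symbols for positions listed in dcp2-7 and in wild-type cells at 37 °C. NOT3 had its only position 238 nt upstream, and positions listed in 1 genotype alone were seen at CCR4 and CDC36.

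In wild-type S288C cells CDC39 had 0.723 and 0.668 in the 2 libraries, CDC36 0.562 and 0.591, NOT5 0.543 and 0.510, CCR4 0.524 and 0.508, and POP2 0.455 and 0.464. CAF40 had 0.376 and 0.327, NOT3 0.348 and 0.308, MOT2 0.204 and 0.214, and CAF130 0.167 and 0.168. The scaffold CDC39 was thus the most abundant mRNA and CAF130 the least. The libraries of NOT5 and CCR4 overlapped, as did those of CAF40 and NOT3, and no other neighbours in this order did. CDC39 exceeded 77.1% and 75.9% of mRNAs in density, and CAF130 35.5% and 36.4%. The order changed with the mutation. In xrn1D S288C cells POP2 was highest, with 1.59 and 1.54, CDC39, CDC36, NOT5 and CAF40 overlapped with their neighbours below it, and CCR4 was 7th of 9 with 0.902 and 0.825.

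**Figure D2:**
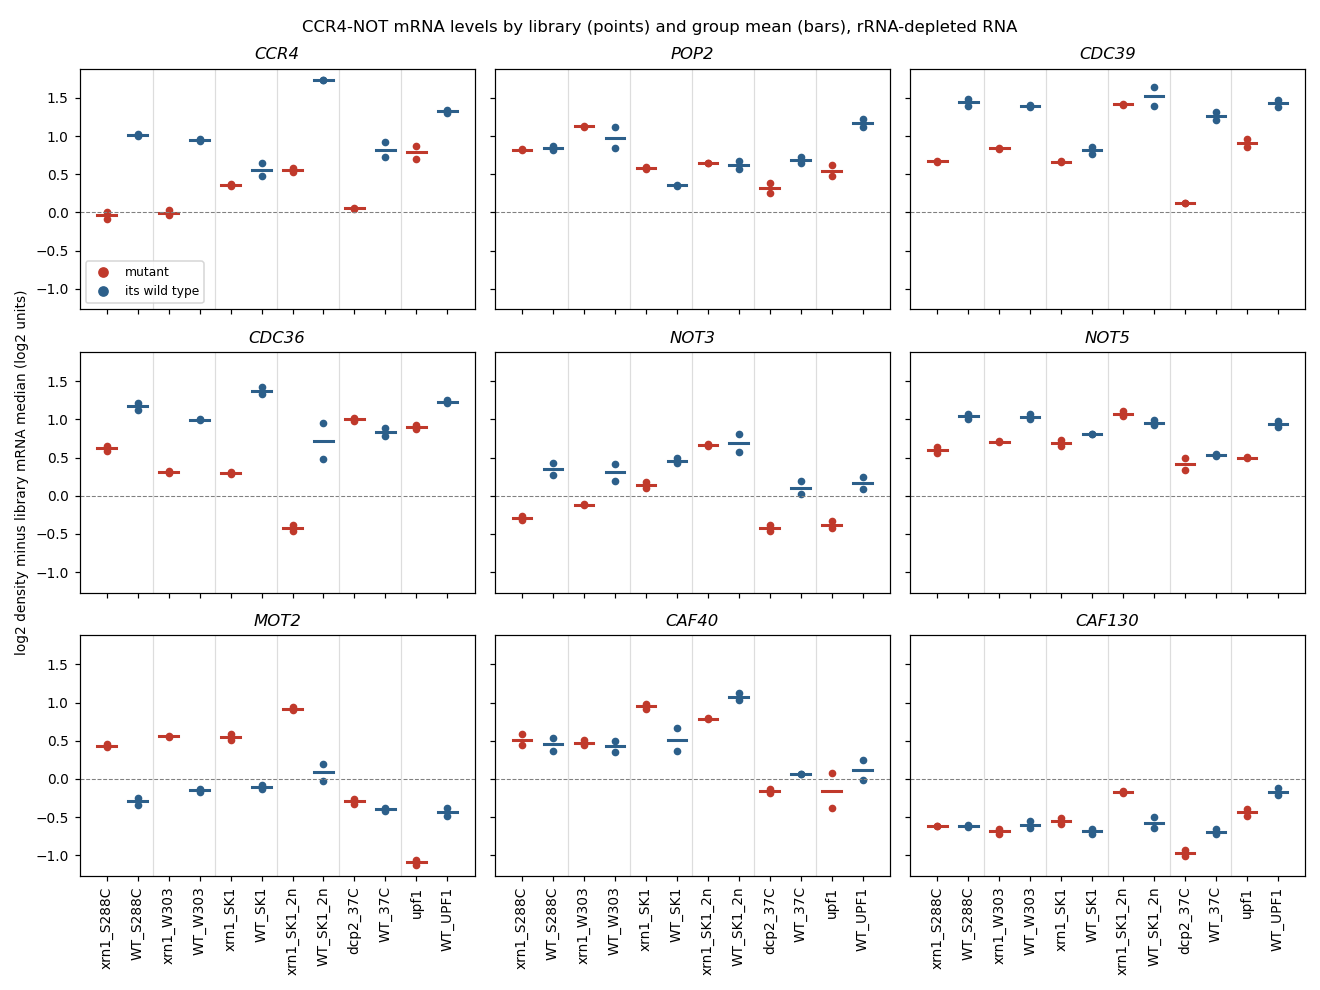
Level of the 9 CCR4-NOT mRNAs relative to the other mRNAs in each rRNA-depleted library. The y axis is log2 density minus the library's mRNA median in log2 units, points are libraries, bars are group means, and each mutant (xrn1_, dcp2_ and upf1) stands left of its wild type (WT_; 2n is diploid). MOT2 lies above its wild type in all 4 xrn1D groups, CCR4 and CDC36 below it.

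All 9 members rose in density in xrn1D cells of all 4 backgrounds (adjusted p under 0.05, limma), as it did for most mRNAs: 94.8% of mRNAs rose in S288C, 97.6% in W303, 92.9% in haploid SK1 and 97.2% in diploid SK1. The members' median log2 changes were 1.34, 1.82, 1.58 and 3.46 in that order of backgrounds. The members did not move as a block, and the spread between the least and the most changed was 1.75, 1.63, 1.71 and 1.96 log2 units in the same order. Relative to the mRNA median, 1 member rose and 5 fell in S288C (27.7% and 46.7% of mRNAs), and 1 rose and 5 fell in W303 (28.9% and 46.5%). In haploid SK1 3 rose and 3 fell (30.8% and 46.4% of mRNAs), and in diploid SK1 3 rose and 2 fell (28.4% and 53.1%). The median mRNA itself changed by -0.18, -0.16, -0.15 and -0.30 on that scale.

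MOT2, the ubiquitin ligase, rose the most of the 9 members in every background. Its density was 1.20 and 1.20 in xrn1D S288C cells, against 0.204 and 0.214 in wild type, and 1.52 and 1.64 in xrn1D W303 cells, against 0.214 and 0.220 in wild type. In haploid SK1 it was 1.12 and 1.18 in xrn1D cells, against 0.245 and 0.199 in wild type, and in diploid SK1 1.81 and 1.71 in xrn1D/xrn1D cells, against 0.0834 and 0.0859 in wild type. Every xrn1D library was several times above every wild-type one. The log2 changes were 2.49 ± 0.12 (SE; adjusted p = 1.3e-14), 2.83 ± 0.12, 2.35 ± 0.12 and 4.29 ± 0.12. MOT2 was also the member that rose relative to the mRNA median in all 4 backgrounds, by 0.72 ± 0.07 in S288C (adjusted p = 5.9e-08), 0.70 in W303, 0.65 in haploid SK1 and 0.84 in diploid SK1. In these comparisons its change was higher than that of 88.7%, 87.6%, 85.6% and 92% of mRNAs. A gene below the median mRNA in wild-type S288C (above 42.4% and 44.2% of mRNAs) thus lay above it in xrn1D cells (61.8% and 62.7%).

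CCR4, the catalytic subunit, rose less than MOT2 in every background. Its density was 0.902 and 0.825 in xrn1D S288C cells, against 0.524 and 0.508 in wild type, and 1.00 and 1.15 in xrn1D W303 cells, against 0.445 and 0.481 in wild type. In haploid SK1 it was 0.997 and 1.01 in xrn1D cells, against 0.358 and 0.344 in wild type, and in diploid SK1 1.43 and 1.30 in xrn1D/xrn1D cells, against 0.242 and 0.293 in wild type. All xrn1D libraries were above their wild types. The change of CCR4 was higher than that of 13.9% of mRNAs in S288C, 16.7% in W303, 47.8% in haploid SK1 and 24.7% in diploid SK1. The log2 changes were 0.73 ± 0.14 (adjusted p = 3.4e-05), 1.20 ± 0.14, 1.50 ± 0.14 and 2.33 ± 0.14, the lowest of the 9 members in S288C and W303, while in diploid SK1 CDC36 had nearly the same change (2.35 ± 0.16). On the relative scale CCR4 fell by 1.03 in S288C (SE 0.07, adjusted p = 1.6e-09), 0.93 in W303 and 1.12 in diploid SK1. In haploid SK1 the value was -0.19 (adjusted p = 0.022), and that call was lost without either xrn1D library (adjusted p = 0.0936 and 0.0553) and without the second wild-type library (0.23). POP2, its partner deadenylase, rose by 1.75, 2.29, 1.93 and 3.51 log2 units in the 4 backgrounds. Relative to the mRNA median its changes lay between -0.01 and 0.23, and it passed the test on that scale in haploid SK1 only (0.23, adjusted p = 0.013, and 0.0599 without the second xrn1D library).

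The scaffold CDC39 had densities of 1.42 and 1.39 in xrn1D S288C cells, against 0.723 and 0.668 in wild type, and 1.83 and 2.01 in xrn1D W303 cells, against 0.619 and 0.644 in wild type. In haploid SK1 it had 1.25 and 1.23 in xrn1D cells, against 0.439 and 0.397 in wild type, and in diploid SK1 2.55 and 2.40 in xrn1D/xrn1D cells, against 0.227 and 0.231 in wild type. No mutant library overlapped its wild types. Against the median mRNA CDC39 fell by 0.76 in S288C (adjusted p = 4.5e-08) and by 0.54 in W303 (adjusted p = 2.7e-06), while the values in haploid SK1 (-0.14, adjusted p = 0.08) and diploid SK1 (-0.05, adjusted p = 0.54) did not pass the test. CDC39 is 6327 nt long, and the 203 mRNAs of at least 4000 nt had median relative changes of -0.629 in S288C and -0.484 in W303; the part of length was not tested.

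CDC36, the smallest gene of the set at 576 nt, had densities of 1.41 and 1.31 in xrn1D S288C cells, against 0.562 and 0.591 in wild type, and 1.27 and 1.40 in xrn1D W303 cells, against 0.467 and 0.489 in wild type. In haploid SK1 it had 0.974 and 0.950 in xrn1D cells, against 0.648 and 0.586 in wild type, and in diploid SK1 0.696 and 0.687 in xrn1D/xrn1D cells, against 0.101 and 0.170 in wild type. The haploid SK1 change was the smallest of any member in any xrn1D comparison, 0.64 ± 0.16 log2 units (adjusted p = 0.00063). CDC36 fell relative to the mRNA median in all 4 backgrounds, by 0.53 in S288C, 0.67 in W303, 1.06 in haploid SK1 and 1.10 in diploid SK1 (highest adjusted p = 0.00014). Over mRNAs under 1000 nt the median relative change was -0.199, -0.203, -0.462 and -0.658 in these backgrounds. Of the related subunits NOT3 and NOT5, which share that end of the scaffold, both fell relative to the median in S288C (-0.64 and -0.43) and W303 (-0.42 and -0.31). NOT3 also fell in haploid SK1 (-0.31, adjusted p = 0.0047), and NOT5 rose in diploid SK1 (0.16, adjusted p = 0.017), a call that was lost without the second library of either diploid group (adjusted p = 0.114 without the xrn1D/xrn1D one and 0.0788 without the wild-type one).

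The peripheral subunits CAF40 and CAF130 had changes relative to the median in S288C and W303 that lay between -0.10 and 0.07 and none passed the test. CAF40 rose by 0.44 in haploid SK1 (adjusted p = 0.0039). Its density there was 1.48 and 1.55 in xrn1D cells, against 0.333 and 0.347 in wild type, and without the first wild-type library the call was lost (0.29, adjusted p = 0.0659). CAF130 rose by 0.35 in diploid SK1 (adjusted p = 6.6e-05), where its density was 0.862 and 0.786 in xrn1D/xrn1D cells, against 0.0515 and 0.0560 in wild type.

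**Figure D3:**
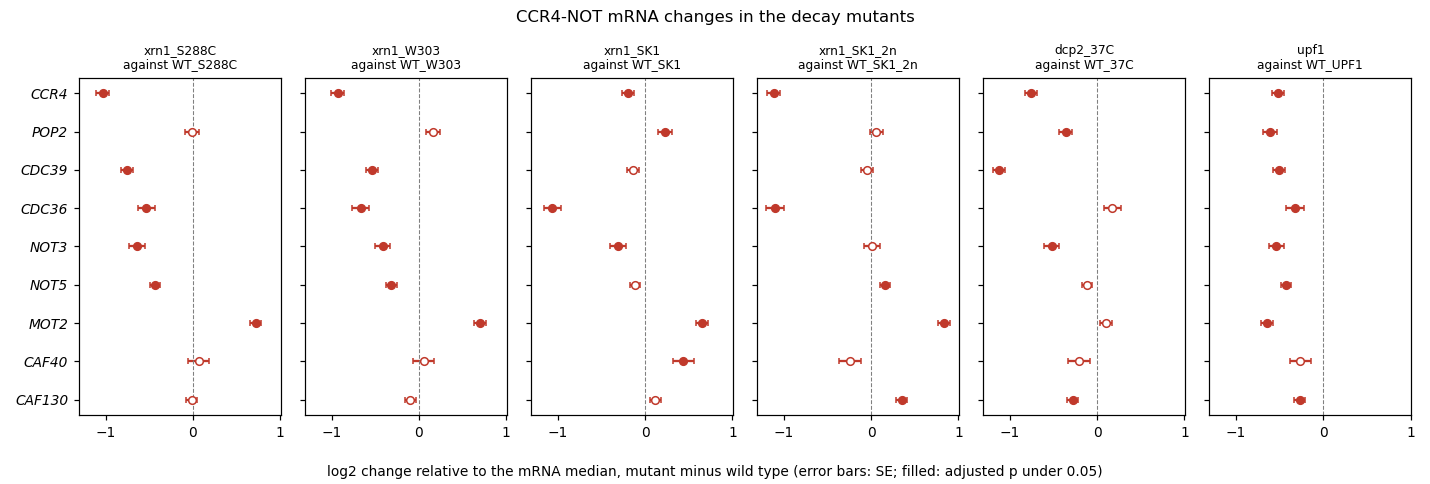
Log2 change of each CCR4-NOT mRNA in the 6 mutants relative to the mRNA median. Rows are genes, the x axis is the log2 change of mutant (named first) over its wild type with its standard error from limma, and filled symbols passed the test (adjusted p under 0.05). MOT2 is the highest member in all 4 xrn1D comparisons. All 9 values lie below 0 in upf1D cells, where the median mRNA changed by -0.29.

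Whether the response to XRN1 loss differed between backgrounds was tested directly as a difference of differences. Between W303 and S288C 4 members differed on the deposited scale (29.2% of mRNAs were called higher), by 0.48 to 0.59 log2 units, and none relative to the mRNA median (21.8% of mRNAs in either direction), with values from -0.13 to 0.22; limma's unadjusted p was under 0.05 for 1 member, CDC39. Without 1 library at a time 0 to 3 members were called, and none without xrn1D S288C library 1 or 2, wild-type S288C library 1 or xrn1D W303 library 2. Between haploid SK1 and S288C, CCR4 (0.77 on the deposited scale and 0.84 relative to the median) and CDC39 (0.55 and 0.62) responded more strongly in SK1, and CDC36 (-0.59 and -0.53) less strongly. Length moved with this difference over all mRNAs: its median relative to the mRNA median was 0.542 at 4000 nt or more (CDC39), 0.332 from 2000 to 4000 nt (CCR4, 2514 nt, and NOT3) and -0.179 under 1000 nt (CDC36), and its part was not tested. On the deposited scale these are 2 members higher (13.5% of mRNAs) and 1 lower (18.6%). On the relative scale NOT3 (0.33) and NOT5 (0.32) were called as well, so 4 members were higher (30.1% of mRNAs) and 1 lower (23.6%). The wild types of these backgrounds differed as well: CCR4, POP2, CDC39 and NOT5 were lower in wild-type haploid SK1 than in wild-type S288C, by 0.55, 0.59, 0.73 and 0.33 log2 units (4 of 9 members, 29.7% of mRNAs). These 4 genes were also called lower relative to the mRNA median (-0.44, -0.48, -0.62 and -0.23; 32% of mRNAs) and MOT2 higher (0.18; 31.5%), and mRNAs of at least 4000 nt had a median of -0.531. CDC39 had 0.439 and 0.397 in wild-type SK1, against 0.723 and 0.668 in wild-type S288C, with no overlap. The xrn1D and wild-type libraries of S288C enter both tests.

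Between diploid and haploid SK1 all 9 responses were higher on the deposited scale (87.7% of mRNAs), by 0.83 to 2.07 log2 units. Relative to the mRNA median 3 were higher (20.2% of mRNAs), namely NOT3 (0.32), NOT5 (0.27) and CAF130 (0.23), and 2 lower (42.7%), CCR4 (-0.92, adjusted p = 1.2e-06) and CAF40 (-0.68, adjusted p = 0.0026). All of this rests on the wild-type diploid libraries described above. In them all 9 members were lower than in wild-type haploid SK1 (94.2% of mRNAs fell), while relative to the mRNA median CCR4 (1.12), CDC39 (0.66), CAF40 (0.52), POP2 (0.24) and MOT2 (0.18) were higher (40.6% of mRNAs) and CDC36 was lower (-0.67; 27% of mRNAs). CCR4 had 0.242 and 0.293 in wild-type diploid cells, against 0.358 and 0.344 in wild-type haploid cells. In the same comparison CDC36 had 0.101 and 0.170, against 0.648 and 0.586.

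In dcp2-7 cells at 37 °C 7 of 9 members rose over wild type at 37 °C on the deposited scale (80.2% of mRNAs), with a median log2 change of 0.57. Relative to the mRNA median 5 fell (41.9% of mRNAs) and none rose (23.5%; 0 also at limma's unadjusted p under 0.05 and with voom). A member was called higher there with the pseudocount at the 25th percentile, and also with only the libraries of the comparison. The median mRNA itself changed by -0.14 on that scale. CDC36 rose the most. Its density was 0.964 and 0.862 in dcp2-7 cells, against 0.418 and 0.476 in wild type, a log2 change of 1.02 ± 0.16 (adjusted p = 4.3e-06). MOT2 had 0.390 and 0.355 in dcp2-7 cells, against 0.169 and 0.214 in wild type (0.95 ± 0.12, adjusted p = 3.7e-07). Neither gene's libraries overlapped, and relative to the mRNA median neither passed the test (CDC36 0.17, MOT2 0.10).

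CDC39 had the lowest change of the 9 members in dcp2-7. Its density was 0.535 and 0.463 in dcp2-7 cells, against 0.522 and 0.693 in wild type, so that the groups overlapped. On the deposited scale it did not pass the test (-0.27 ± 0.12, adjusted p = 0.052; called without dcp2-7 library 1, at 0.0315, and without wild-type library 1, at 0.00209). On the relative scale it fell by 1.12 (SE 0.07, adjusted p = 1.6e-09), and 2.41% of mRNAs had a lower change (the median of mRNAs of at least 4000 nt was -0.284). CCR4 showed the same kind of value: 0.509 and 0.438 in dcp2-7 cells, against 0.372 and 0.526 in wild type, with overlap, and -0.76 relative to the median (adjusted p = 1.8e-07), a change lower than that of all but 8.63% of mRNAs. POP2 (-0.36), NOT3 (-0.52) and CAF130 (-0.28) fell as well on that scale. On the deposited scale the rise of POP2 (0.49) and of NOT3 (0.33) was lost without dcp2-7 library 1 and without wild-type library 1 (adjusted p for POP2 0.0702 and 0.0673, for NOT3 0.177 and 0.558). In wild type at 37 °C against wild-type S288C, whose temperature the labels do not give, only NOT5 was called on the deposited scale (16.6% of mRNAs fell), at -0.53 ± 0.12 (adjusted p = 0.0022), with 0.328 and 0.398 at 37 °C, against 0.543 and 0.510. More members were called lower without the second 37 °C library, a fit for which the share of mRNAs called is not given. With all libraries 5 were called lower relative to the mRNA median (28.5% of mRNAs), NOT5 (-0.50, adjusted p = 4.8e-06), CAF40 (-0.39), CDC36 (-0.33), NOT3 (-0.24) and CCR4 (-0.19, adjusted p = 0.048).

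In upf1D cells, which lack NMD, CAF130 was the only member called higher on the deposited scale (47% of mRNAs rose), with 0.185 and 0.182 in upf1D cells, against 0.142 and 0.143 in their wild type, a log2 change of 0.35 ± 0.13 (adjusted p = 0.027). This call was lost without any 1 of the 4 libraries (adjusted p 0.0666 to 0.106). Relative to the mRNA median 8 members fell (54.5% of mRNAs), all but CAF40, by 0.27 to 0.64. The median mRNA itself changed by -0.29 on that scale. The changes of CAF130 (-0.27) and CDC36 (-0.32) were higher than those of 52.4% and 47% of mRNAs. MOT2 had 0.119 and 0.114 in upf1D cells, against 0.119 and 0.118 in wild type, and its relative change was -0.64 ± 0.07 (adjusted p = 3.8e-07). That was lower than the change of all but 8.77% of mRNAs. POP2 had 0.362 and 0.365 in upf1D cells, against 0.362 and 0.361 in wild type, and it fell by 0.61 relative to the median. CAF40 was uneven between replicates, with 0.274 and 0.183 in upf1D cells, against 0.154 and 0.197 in wild type. The wild-type pair of this comparison is the same strain as wild-type S288C but differed from it: 8 members were lower in it (69.8% of mRNAs), by 0.34 to 0.99, and relative to the mRNA median CAF130 (0.44), POP2 (0.32) and CCR4 (0.30) were higher (37.6% of mRNAs) and CAF40 (-0.33) lower (23.1%). The calls of CCR4 and POP2 on the deposited scale were lost without any 1 of the 4 libraries (adjusted p 0.0746 to 0.135). Between wild-type W303 and wild-type S288C no member was called by limma on either scale (21.4% and 37.9% of mRNAs were). The count was 0 at an unadjusted p under 0.05 as well, and with voom on the deposited scale, with changes from -0.27 to 0.05. With only these 4 libraries in the fit CDC36 was called lower (-0.27, adjusted p = 0.0402).

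Terminator digests RNA with a 5′ monophosphate, so that capped RNA is kept and decapped RNA is lost. The Terminator libraries were made from total RNA and the others from rRNA-depleted RNA, and the effects of digestion and of rRNA removal cannot be told apart. In xrn1D S288C cells 8 of 9 members were lower after Terminator on the deposited scale (88.4% of mRNAs), with a median of -1.26. In wild-type S288C 2 were lower (15.6% of mRNAs) and 1 higher (11.1%), with a median of -0.26. The difference between these responses was called for 7 of 9 members (87.8% of mRNAs lower).

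MOT2 had the lowest of these differences. Its density was 0.325 and 0.374 in Terminator-treated xrn1D RNA, against 1.20 and 1.20 in untreated xrn1D RNA, and 0.168 and 0.191 in Terminator-treated wild-type RNA, against 0.204 and 0.214 in untreated wild-type RNA. Treated and untreated libraries did not overlap in either strain. The xrn1D response was -1.76 ± 0.15, the wild-type response -0.21 ± 0.15 (adjusted p = 0.33), and their difference -1.55 ± 0.21 (adjusted p = 4.8e-07). On the relative scale the difference was -0.40 (adjusted p = 0.0014), and MOT2 was the only member called lower there (16.4% of mRNAs). CDC39 (0.94), CCR4 (0.83), NOT3 (0.57) and CAF130 (0.37) were called higher (33.8% of mRNAs). These 4 are the longest members, at 6327, 2514, 2511 and 3369 nt. Length moved with this value over all mRNAs: the median difference was 0.93 in the 203 mRNAs of at least 4000 nt, 0.36 from 2000 to 4000 nt and 0.05 from 1000 to 2000 nt. Its part in the members' values was not tested.

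CAF40 was higher relative to the mRNA median in the Terminator libraries of all 4 strains and conditions. Its density was 1.08 and 1.10 in treated xrn1D RNA, against 1.35 and 1.19 untreated, and 0.627 and 0.660 in treated wild-type RNA, against 0.376 and 0.327 untreated. At 37 °C it was 0.840 and 0.934 in treated dcp2-7 RNA, against 0.448 and 0.375 untreated, and 0.440 and 0.643 in treated wild-type RNA, against 0.235 and 0.289 untreated. Treated RNA was higher than untreated except in xrn1D cells, where it was lower. Against the median mRNA CAF40 rose by 1.02 ± 0.09 in xrn1D cells, 0.95 in wild type, 0.99 in dcp2-7 and 0.85 in wild type at 37 °C (highest adjusted p = 1.7e-05). Of mRNAs 44.9%, 32.2%, 29.7% and 23.3% were called higher in these comparisons. These changes were above those of 91.7%, 96.7%, 96.9% and 96.3% of mRNAs. CDC39 showed the opposite outside xrn1D cells, with relative changes of -0.97 in wild type, -0.79 in dcp2-7 and -0.72 in wild type at 37 °C (highest adjusted p = 7.8e-07; 25.7%, 20.9% and 20.5% of mRNAs were called lower), and -0.03 in xrn1D cells (adjusted p = 0.61). At 37 °C CDC39 had 0.320 and 0.294 in treated dcp2-7 RNA, against 0.535 and 0.463 untreated. Long mRNAs shared this pattern, since the median change of those of at least 4000 nt was -0.605, -0.472 and -0.471 in the same 3 groups and 0.35 in xrn1D cells. In these groups 0.857%, 1.24% and 1.29% of mRNAs had a change below that of CDC39. Between dcp2-7 and wild type at 37 °C the Terminator response differed for none of the members on either scale (0.035% of mRNAs on the deposited scale and 0.0175% relative to the median), with differences from -0.19 to 0.09 on the deposited scale. At limma's unadjusted p under 0.05 the count was 0 too, as it was with voom.

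**Figure D4:**
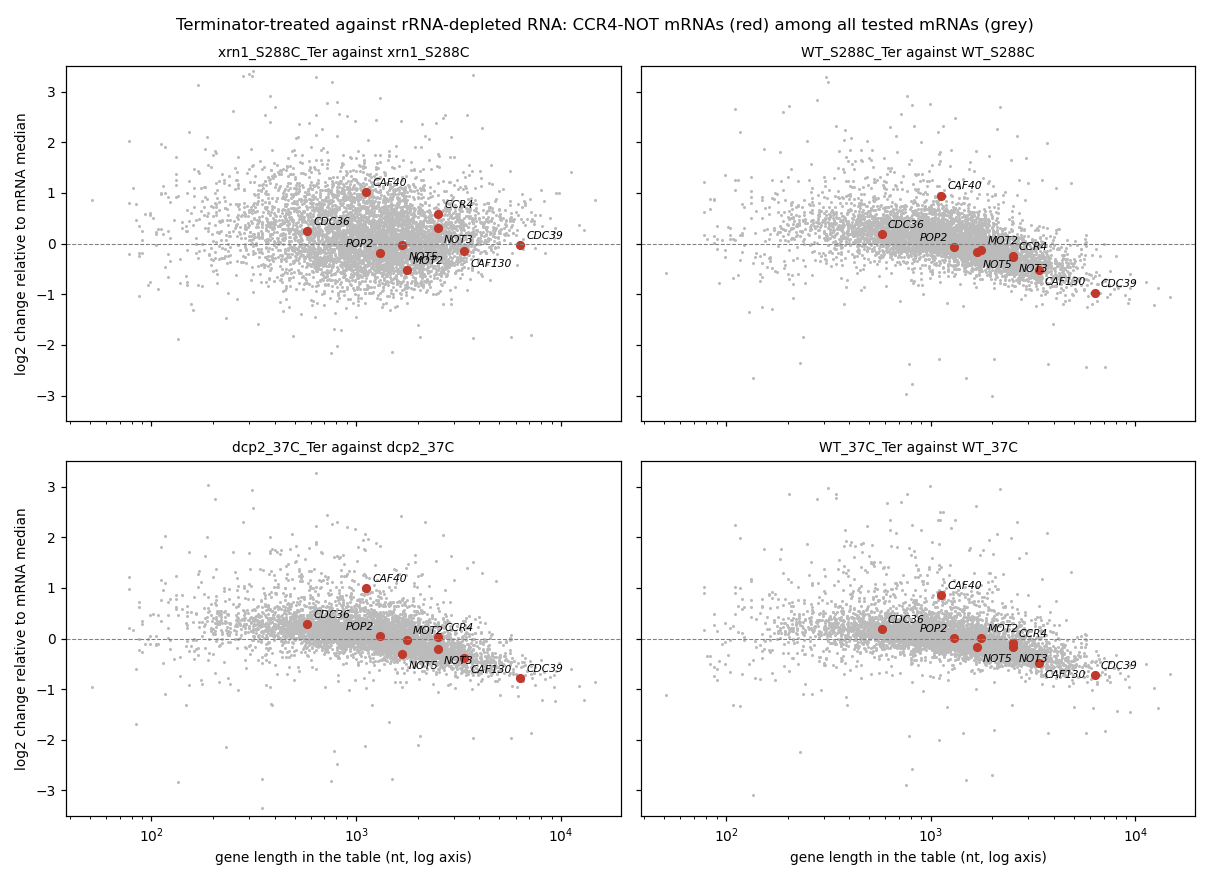
Terminator response of each CCR4-NOT mRNA against gene length. The x axis is the annotated length in nt and the y axis the log2 change of Terminator-treated over untreated RNA relative to the mRNA median, with 1 panel per strain and condition. Members are red and all tested mRNAs grey, without the 1 to 3 mRNAs in each panel that change by more than 3.5. CAF40 is the highest member in every panel, and CDC39, the longest, is the lowest in all but xrn1D.

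Annotated lncRNAs lie opposite 3 of the 9 members, against 27.6% of mRNAs. They are CUT558 (chr5:294287-294919, minus strand, 527 nt within MOT2), XUT1143 (chr5:294542-294744, minus strand, 203 nt within MOT2), CUT619 (chr7:760498-761114, minus strand, 617 nt within CAF130) and SUT185, which overlaps NOT3 by 105 nt. CUTs and SUTs are cryptic and stable unannotated transcripts, and XUTs are transcripts that accumulate without XRN1. The libraries keep the strand, but XUT1143 lies wholly within CUT558 and both count the same reads. SUT185 had at most 1 read in any library and was not tested.

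The RNA opposite MOT2 was rare in wild type. CUT558 had a density of 0.0530 and 0.0473 in xrn1D S288C cells (116 and 90 reads), against 0.00071 and 0.00239 in wild type (1 and 7 reads), and 0.0629 and 0.0664 in xrn1D W303 cells, against 0.00835 and 0.00454 in wild type. On the deposited scale it rose by 2.94 ± 0.27 log2 units in S288C (adjusted p = 4.9e-10) and by 2.54 ± 0.27 in W303, values that rest on the pseudocount because the wild-type counts are low. In haploid SK1 it had 0.0149 and 0.0258 in xrn1D cells, against 0.00492 and 0.00739 in wild type, a smaller rise of 1.11 ± 0.27 (adjusted p = 0.00058). In diploid SK1 it had 0.0139 and 0.0183 in xrn1D/xrn1D cells, against 0.0183 and 0.00613 in wild type, with overlap and no call (0.36, adjusted p = 0.2). On the relative scale CUT558 was called higher in S288C alone (1.18, adjusted p = 0.0044), with 0.41 in W303 (adjusted p = 0.27) and -0.59 in haploid SK1 (adjusted p = 0.11), and it was called lower in diploid SK1 (-3.08, adjusted p = 1.6e-07). Its response in haploid SK1 minus that in S288C was -1.83 (adjusted p = 0.00048) on the deposited scale and -1.77 (adjusted p = 0.0043) on the relative one. For MOT2 itself the difference between the same backgrounds was -0.14 ± 0.17 (adjusted p = 0.55), which did not pass the test. In upf1D cells CUT558 had 0.0205 and 0.0160, against 0.00430 and 0.00440 in wild type (1.24 ± 0.27, adjusted p = 0.00036), without overlap, a call that was lost relative to the mRNA median (0.62, adjusted p = 0.10). In dcp2-7 cells CUT558 had 0.00522 and 0.00683, against 0.00437 and 0.00540 in wild type (0.15, adjusted p = 0.63; relative value -0.70, adjusted p = 0.07). XUTs are listed for accumulating without XRN1, so a rise of XUT1143 in xrn1D cells is no independent result. XUT1143 was called higher on the deposited scale in xrn1D S288C, xrn1D W303, xrn1D haploid SK1 and upf1D cells (3.86, 2.74, 1.22 and 1.50). Only the S288C call was left on the relative scale (2.09; the others were 0.60, -0.48 and 0.88), and diploid SK1 was called lower (-3.40). CUT619, opposite CAF130, was called higher on the deposited scale in xrn1D S288C (1.61), xrn1D W303 (0.96) and upf1D cells (0.60, adjusted p = 0.028). None of these was called higher relative to the mRNA median (-0.15, -1.17 and -0.02), where it was called lower in xrn1D W303 (adjusted p = 9.3e-05), haploid SK1 (-1.46), diploid SK1 (-3.14) and dcp2-7 (-0.89). It had 10 and 11 reads in the xrn1D W303 libraries, against 11 and 2 in wild type.

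The partners of the complex in deadenylation and decay, 31 genes, were counted in the same way. On the deposited scale 29 rose in xrn1D S288C, 29 in W303, 30 in haploid SK1, 30 in diploid SK1, 25 in dcp2-7 and 9 in upf1D cells, of 31 each, beside 94.8%, 97.6%, 92.9%, 97.2%, 80.2% and 47% of all mRNAs. The only partner that fell was the deleted XRN1 itself in the 4 xrn1D comparisons. Relative to the mRNA median 10 rose and 16 fell in S288C, 9 and 15 in W303, 10 and 9 in haploid SK1, 7 and 18 in diploid SK1, 6 and 16 in dcp2-7 and 1 and 24 in upf1D cells (21.1% of mRNAs rose there; the other shares are those given for the members). By limma's adjusted p on that scale, the first 4 partners were XRN1, PAB1, CAF20 and PBP1 in xrn1D S288C, W303 and diploid SK1 cells. In xrn1D haploid SK1 they were XRN1, CAF20, PAB1 and DHH1. Among them PAB1, the poly(A)-binding protein on mRNA tails, fell in all 4 xrn1D comparisons (-1.97, -2.04, -1.38 and -2.78), as did XRN1. On the deposited scale PAB1 was called higher in haploid (0.32) and diploid SK1 (0.67) and not called in S288C and W303. In dcp2-7 cells, relative to the mRNA median and with deposited values in parentheses, the decapping enhancer EDC1 rose by 2.15 (3.00), DHH1, a helicase that CCR4-NOT recruits, rose by 1.01 (1.86), and PAB1 had -0.998 (-0.15, not called) and SKI3 of the SKI complex -0.80 (0.05, not called). In upf1D cells on the same scales NGL3, a CCR4-related gene, rose by 1.23 (1.84). DHH1 had -0.71 (-0.09), the decapping activator PAT1 -0.73 (-0.11) and PBP1, which binds PAB1, -0.58 (0.04), called on the relative scale only.

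The members' profiles over the 12 rRNA-depleted groups, as log2 density relative to the mRNA median, were not alike. The 36 pairs had Pearson correlations from -0.77 (MOT2 with CDC36) to 0.84 (NOT5 with NOT3), given as a description over 12 group means that share libraries and scaling. NOT5 (0.88), NOT3 (0.83) and CDC39 (0.80) had the highest correlation with the mean of the other 8 members, and MOT2 (-0.02) and CDC36 (-0.34) the lowest. Over the 12 groups MOT2 ranged the most, by 1.97 log2 units with upf1D lowest and xrn1D/xrn1D diploid SK1 highest, and NOT5 the least, by 0.66. Outside the complex, of 2891 mRNAs of above-median density, the profiles most like the members' mean were those of SKN7 (0.93), REB1 (0.92), NUP60 (0.91), PUS1 (0.91) and CHS2 (0.89).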

How the data were processed

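Of 36 samples, 32 were strand-specific paired-end RNA-seq libraries and 4 CAGE samples. The deposited signal values are densities per nucleotide that the authors scaled. Multiplied by length they are whole multiples of 1 value per library in 100.0% of cases (tolerance 0.01), and the sum over 77 snoRNAs is the same in every library. The submitters' processing notes list cutadapt, TopHat and Bowtie, and no build was given in the sources used here. CAGE positions of the minus strand lay 1 nt before the pyrimidine-purine step (0.935% there and 95.7% 1 nt downstream, against 95.8% at the deposited plus-strand positions) and were moved by 1 nt.

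log2(density + pseudocount), with the 5th percentile of non-zero densities as pseudocount (0.00577 over 24 rRNA-depleted libraries, 0.00841 over the 16 libraries of the Terminator model), entered a linear model in limma 3.58.1 (R 4.3.3), with empirical Bayes moderation that was robust and allowed a trend. Such fold changes understate those of low features. Features at or above the pseudocount in at least 2 libraries entered (9712 and 9615; all 9 members), tests were two-sided, and p-values were adjusted by Benjamini-Hochberg over all of them, with 0.05 as threshold. The script was tested on simulated data with the same spread in every library, which does not measure error rates in the real libraries. Percentages of mRNAs called are over 5760 mRNAs in the larger model and 5715 in the Terminator model. Replicates of a group differed by more than sampling noise (chi-square per degree of freedom 3.03 to 63.8). Each comparison tested all 9 members, but not every member is named with its value in the text. Also named are the deleted genes (a check of the labels), all lncRNAs opposite a member and the 5 mRNAs with the most similar profile. For the mutants up to 4 partners with the lowest adjusted p relative to the mRNA median are named (XRN1 included). No measured value entered the rule for the members, but the members and lists were chosen with earlier results of these data known.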

Additional observations from a re-analysis of the deposited data

Results flagged for a closer look

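Responses that differed between groups, called by limma both on the deposited scale and relative to the mRNA median with the same sign, were as follows. The response to XRN1 loss in haploid SK1 minus that in S288C was 0.77 for CCR4 (0.84 relative to the median), 0.55 for CDC39 (0.62) and -0.59 for CDC36 (-0.53). On the deposited scale the CDC36 call was lost without any 1 of 7 of the 8 libraries, all but the second wild-type SK1 library (adjusted p 0.055 to 0.106), and that of CDC39 without xrn1D S288C library 2, wild-type S288C library 1 or wild-type SK1 library 2 (0.0507 to 0.0663). The response in diploid SK1 minus that in haploid SK1 was 2.07 for NOT3 (0.32), 2.02 for NOT5 (0.27) and 1.98 for CAF130 (0.23). These last 3 rest on the wild-type diploid libraries, which had the lowest mRNA medians. The Terminator response of xrn1D S288C minus that of wild type was -1.55 for MOT2 (-0.40).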

How the results depend on the processing

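Members called higher and lower changed with the scaling in most comparisons, and the pairs of counts below give higher, then lower. Scaled to the mRNA median in place of the deposited snoRNA scaling, they were 1 and 5 (xrn1D S288C), 1 and 5 (W303), 3 and 3 (haploid SK1), 3 and 2 (diploid SK1), 0 and 5 (dcp2-7) and 0 and 8 (upf1D), and the opposite change of scale gave 9 and 0 in the xrn1D comparisons, 7 and 0, and 1 and 0. On the same change to the mRNA median they were 0 and 5 in wild type at 37 °C, 3 and 1 between the wild-type YAM1 pairs, 1 and 4 in wild-type SK1 and 5 and 1 in the wild-type diploid. The response to XRN1 loss gave 0 (W303), 4 and 1 (haploid SK1) and 3 and 2 (diploid SK1). The Terminator changes gave 4 and 3 in xrn1D (2564 and 1519 of 5715 mRNAs) and 2 and 5 in wild type (32.2% and 25.7%). They gave 2 and 4 in dcp2-7 (29.7% and 20.9%) and 2 and 2 in wild type at 37 °C (23.3% and 20.5%). The xrn1D difference gave 4 and 1 (33.8% and 16.4%). On the deposited scale the Terminator counts were 2 and 1 in dcp2-7 (1165 and 220 of 5715 mRNAs). In wild type at 37 °C they were 1 and 1 there (1021 and 139). Partners gave 10 and 16, 9 and 15, 10 and 9, 7 and 18, 6 and 16 and 1 and 24.

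Some members called on 1 of the scales had the other sign on the other. Their values are given relative to the mRNA median, with those on the deposited scale in parentheses. In xrn1D S288C they were CCR4 -1.03 (0.73), POP2 -0.012 (1.75), CDC39 -0.76 (1.01), CDC36 -0.53 (1.23), NOT3 -0.64 (1.13), NOT5 -0.43 (1.34) and CAF130 -0.014 (1.75). In xrn1D W303 they were CCR4 -0.93 (1.20), CDC39 -0.54 (1.60), CDC36 -0.67 (1.47), NOT3 -0.42 (1.72), NOT5 -0.31 (1.82) and CAF130 -0.10 (2.03). In xrn1D haploid SK1 they were CCR4 -0.19 (1.50), CDC39 -0.14 (1.56), CDC36 -1.06 (0.64), NOT3 -0.31 (1.39) and NOT5 -0.11 (1.58). In diploid SK1 they were CCR4 -1.12 (2.33), CDC39 -0.046 (3.40), CDC36 -1.10 (2.35) and CAF40 -0.24 (3.21). In dcp2-7 they were CCR4 -0.76 (0.093), POP2 -0.36 (0.49), NOT3 -0.52 (0.33), NOT5 -0.11 (0.74), CAF40 -0.21 (0.64) and CAF130 -0.28 (0.57). In upf1D they were CCR4 -0.52 (0.10), POP2 -0.61 (0.0082), CDC39 -0.51 (0.11), CDC36 -0.32 (0.30), NOT3 -0.54 (0.083), NOT5 -0.43 (0.19) and CAF130 -0.27 (0.35). Signs also turned between the wild-type YAM1 pairs (relative values CCR4 0.30, POP2 0.32, CDC36 0.050 and CAF130 0.44) and in wild-type diploid against haploid SK1 (CCR4 1.12, POP2 0.24, CDC39 0.66, NOT3 0.20, NOT5 0.11, MOT2 0.18, CAF40 0.52 and CAF130 0.14). The same held for the diploid against the haploid response (CCR4 -0.92, POP2 -0.17, CDC36 -0.041 and CAF40 -0.68), for Terminator in xrn1D (CCR4 0.59, CDC36 0.25, NOT3 0.31 and CAF40 1.02) and for its difference from wild type (CCR4 0.83, CDC39 0.94, CDC36 0.060, NOT3 0.57, NOT5 0.15, CAF40 0.070 and CAF130 0.37).

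Other settings moved few counts, and the cause was not tested for them or for the scaling. Shares of mRNAs called are not given for other settings of the fits or for fits without 1 library. These counts of members therefore cannot be set against those of all mRNAs. With the pseudocount at the 25th percentile, members higher relative to the mRNA median were 2 in W303, 5 in diploid SK1 and 1 in dcp2-7, and CDC39 turned to 0.19 in diploid SK1 (adjusted p = 0.00829). With limma voom on reads recovered from the densities, 1 member was lower in dcp2-7, 2 higher in upf1D and 3 lower in wild type at 37 °C. With only the libraries of the comparison, 1 member was higher in dcp2-7 relative to the median, 2 higher in upf1D, 1 lower in wild-type W303 and 0 lower after Terminator in wild type at 37 °C. CAGE counts fell to 5 members in both genotypes with 100 nt before the start (67.7% of mRNAs in dcp2-7 and 67.5% in wild type). With 500 nt they rose to all 9 members in both (82.7% and 81.5% of mRNAs). They stayed at 8 with minus-strand positions as deposited, a choice added after seeing the data.

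Leaving out 1 library at a time gave ranges of 1 to 2 members higher relative to the median in W303, 0 to 1 lower in dcp2-7, 0 to 1 higher in upf1D and 1 to 5 lower in wild type at 37 °C. For the response to XRN1 loss the ranges were 0 to 3 higher in W303, and 1 to 2 higher and 0 to 1 lower in haploid SK1. For Terminator they were 1 to 2 lower in wild type, 1 higher in each case in dcp2-7, and 1 to 2 higher and 0 to 1 lower in wild type at 37 °C. A lone library is taken to vary like the other groups.

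The labels do not say that replicate numbers mark a shared batch, and with 2 replicates a group the data cannot settle it. Deviations of replicates with the same number correlated from -0.163 to 0.268, the highest in treated against untreated wild type at 37 °C. The replicate block gave 2 members in place of 4 for the W303 response, and 2 higher and 2 lower in place of 1 and 1 for Terminator in wild type at 37 °C, and left the other counts of members called as they were.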
